A study of Bos taurus with 14 samples.

Results

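The mature miRNAs described here are often used as internal references in RT-qPCR and were followed through small RNA libraries of bovine blood. They are bta-miR-103, bta-miR-107, bta-miR-191, bta-miR-423-5p and bta-miR-423-3p. They were chosen by name, 5 of the 932 miRNA names with reads in any library, and all 5 had reads in all 14 libraries. The animals were non-lactating Holstein cows with rumen cannulas. Each was first fed a forage diet (FD, 0% concentrate) and then a high-grain diet (HG, 65% concentrate, sampled in week 1), so diet and time order cannot be told apart. Plasma came from cows 1 to 4 (8 libraries) and leucocytes from cows 1, 3 and 4 (6 libraries). Leucocytes were taken from the buffy coat and plasma was spun again before RNA extraction with another kit, so kit and sample type cannot be told apart either.

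A miRNA is cut from a hairpin precursor and guides silencing proteins to matching messenger RNAs, mainly through its seed near the 5′ end. A reference miRNA is meant to hold the same level in every sample, since each measured miRNA is divided by it and takes on any shift of its own. miR-103 and miR-107 are close relatives with the same seed that have been tied to insulin signalling and lipid metabolism, miR-191 is abundant in many cell types, and miR-423-5p and miR-423-3p are the opposite arms of 1 hairpin.

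The library files place bta-miR-103 at chr13:51742469-51742491 (minus strand), bta-miR-107 at chr26:11288043-11288064 (minus strand) and bta-miR-191 at chr22:51543484-51543506 (plus strand) on build UMD3.1. The miR-423 arms lie at chr19:21799500-21799522 (5p) and chr19:21799535-21799558 (3p), both on the plus strand. In the RefSeq gene table of ARS-UCD2.0, used for neighbourhood only, the miR-103 precursor genes lie within PANK3 and PANK2 and the miR-107 gene within PANK1, which all encode pantothenate kinases of coenzyme A synthesis. MIR423 lies within NSRP1, which encodes a splicing regulator, and MIR191 lies in no protein-coding gene, with NDUFAF3 and DALRD3 as its nearest neighbours.

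Between 376589 and 4464702 reads per plasma library and between 21764578 and 66070770 per leucocyte library were assigned to miRNAs. A count of 0 allows up to 3 reads, equal to 0.672 to 7.97 reads per 1000000 assigned in plasma and 0.0454 to 0.138 in leucocytes, for counting error only. Levels are CPM (counts per 1000000) of the authors' estimated counts, in which reads are divided to adjust for multiple matches. They are scaled by TMM (trimmed mean of M values) within a sample type unless stated otherwise. Plasma from cow 1 on FD was the shallowest library. All 6 leucocyte marker miRNAs and all 3 erythrocyte marker miRNAs (miR-451, miR-144 and miR-486) had reads in every library of both sample types. The summed erythrocyte level was 43268 to 144685 CPM in plasma and 154066 to 304194 CPM in the buffy-coat leucocytes, and the sum overlapped between the diets in both. Its members differed in direction in leucocytes. miR-486 was 23950, 24370 and 28896 CPM in cows 1, 3 and 4 on FD and 42940, 29174 and 32329 CPM on HG, higher in each cow and without overlap with this scaling, but overlapping with library size alone. miR-144 was 14762, 10057 and 3958 CPM on FD and 7174, 4222 and 3266 CPM on HG, lower in each cow. miR-451, the most abundant of the 3, was higher on HG in cow 4 and lower in cows 1 and 3. In plasma miR-486 was 18359, 46102, 40069 and 53026 CPM in cows 1 to 4 on FD. On HG it was 9256, 21931, 16083 and 32205 CPM, lower in each cow, although the groups overlapped. Plasma miR-144 and miR-451 were higher on HG in cow 3 and lower in cows 1, 2 and 4. The summed leucocyte level was 12384 to 37317 CPM in plasma and 19844 to 34531 CPM in leucocytes, and that of 3 epithelial miRNAs was 3144 to 10786 and 104 to 568 CPM. The liver marker miR-122 was 5027, 81360, 107612 and 75568 CPM in plasma of cows 1 to 4 on FD. On HG it was 35821, 14812, 9463 and 24737 CPM, higher in cow 1 and lower in cows 2 to 4. The part of these cell sources in the results was not tested.

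miR-103 had the narrowest range of the 5 in plasma with this scaling, while miR-191 had the smallest SD with library size alone. It stood at 2662, 2525, 1865 and 2846 CPM in cows 1 to 4 on FD and at 3468, 3102, 2574 and 1684 CPM on HG. Cow 4 was the only animal with a lower value on HG, and the groups overlapped. In leucocytes miR-103 was 6269, 5872 and 4689 CPM in cows 1, 3 and 4 on FD and 7019, 7212 and 5995 CPM on HG. Each cow was higher on HG, but the groups overlapped, with cow 4 the lowest on both diets.

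By these divided counts miR-107 was the least abundant member, and it spread widely in plasma. It stood at 90.4, 1211, 355 and 386 CPM in cows 1 to 4 on FD and at 239, 573, 112 and 211 CPM on HG. Cow 2 had the highest level on each diet and the groups overlapped. In leucocytes the same name was nearly even, with 222, 211 and 167 CPM on FD and 235, 263 and 210 CPM on HG in cows 1, 3 and 4, and again the groups overlapped.

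miR-191 was among the more abundant bovine names, at place 22 of 462 by mean level in plasma and at place 15 of 714 in leucocytes. In plasma it was 6321, 8285, 18991 and 14815 CPM in cows 1 to 4 on FD and 13208, 6696, 6248 and 10790 CPM on HG. The high libraries were cows 3 and 4 on FD and cow 1 on HG, so the groups overlapped. In leucocytes it was 6897, 5611 and 10567 CPM in cows 1, 3 and 4 on FD and 9461, 8495 and 10026 CPM on HG, where cow 4 was highest on both diets and the groups overlapped.

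miR-423-5p had the largest SD of log2 CPM of the members in plasma (1.35), while miR-423-3p had the widest log2 range (3.87 beside 3.81) and miR-107 the largest coefficient of variation (91.8% beside 80.3%). miR-423-5p was 1777, 11604, 24951 and 22474 CPM in cows 1 to 4 on FD and 6779, 5375, 2769 and 10829 CPM on HG, with cow 1 on FD at the bottom and cows 3 and 4 on FD at the top. In leucocytes it was 537, 569 and 581 CPM in cows 1, 3 and 4 on FD and 728, 891 and 783 CPM on HG. With this scaling it alone of the 5 had leucocyte diet groups that did not overlap, at 562 ± 23.1 CPM on FD and 801 ± 83.1 on HG (mean ± SD, n = 3 each). Of all 782 names tested in leucocytes, 13.8% had diet groups that did not overlap, against 4.46% of 538 in plasma, where no member did.

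Which members stood apart by diet in leucocytes depended on the scaling, as alternatives chosen after the data were seen showed. With library size alone miR-423-5p overlapped, with cow 4 on FD at 691 CPM and cow 1 on HG at 641 CPM. Under that scaling miR-103 (5571 to 5620 CPM on FD, 6183 to 7026 on HG) and miR-107 (198 to 202 on FD, 207 to 256 on HG) did not overlap, as did not 14.5% of all names. With TMM over all 14 libraries miR-103, miR-107 and miR-423-5p did not overlap (16.9% of names), and with median-of-ratios size factors miR-103 and miR-423-5p did not (117 of 782 names). All 5 members overlapped between the diets in plasma under each of these scalings.

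miR-423-3p followed its partner arm in plasma. It was 1345, 9316, 16370 and 19714 CPM in cows 1 to 4 on FD and 8851, 4249, 3979 and 11011 CPM on HG. In leucocytes it was 1301, 1424 and 2867 CPM in cows 1, 3 and 4 on FD and 2186, 1805 and 2413 CPM on HG. The groups overlapped in both sample types, and cow 4 had the highest leucocyte level on each diet.

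**Figure D1:**
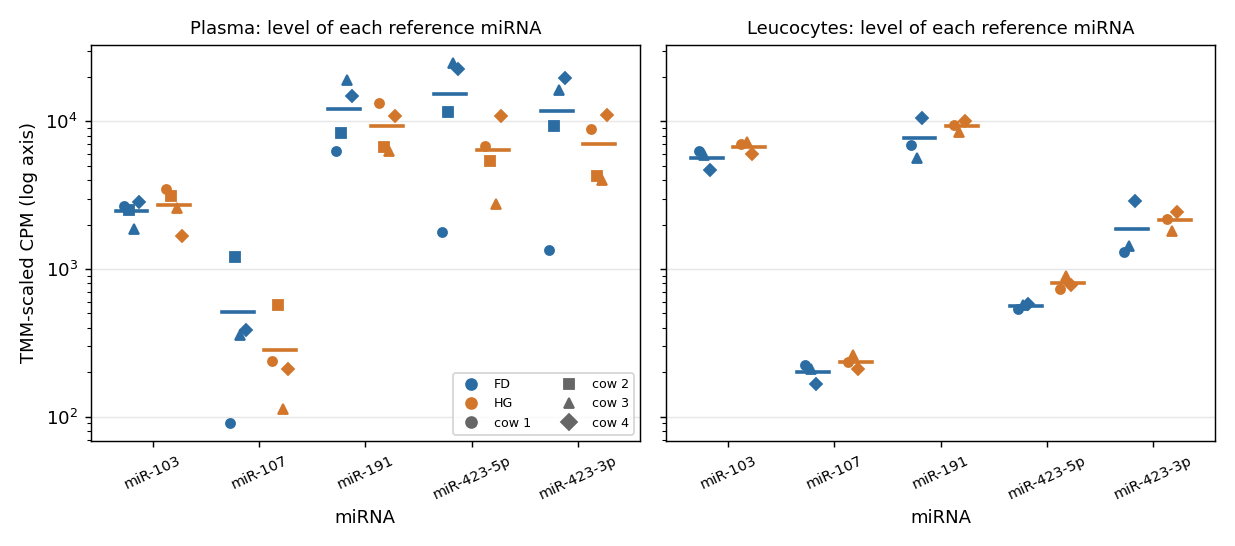
TMM-scaled CPM (log axis) of the 5 reference miRNAs in plasma (left) and leucocytes (right), with FD in blue, HG in orange, a marker shape for each cow and a bar for each group mean. In plasma, miR-103 stays between 1684 and 3468 CPM while miR-423-5p runs from 1777 to 24951, and in leucocytes the diet groups of miR-423-5p stand apart with this scaling.

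The first question was whether any reference moved with the diet. In plasma no member passed edgeR's quasi-likelihood test, in a set of 538 names where 0 (0%) passed at an adjusted p under 0.05, 55 (10.2%) had an unadjusted p under 0.05 and DESeq2 called 12 (2.23%), no member among them. The fitted log2 fold changes (HG against FD) were 0.10 for miR-103 (95% interval -0.92 to 1.12), -0.62 for miR-107 (-2.20 to 0.97) and -0.33 for miR-191 (-1.51 to 0.85). For the arms of miR-423 they were -0.93 for miR-423-5p (-2.87 to 1.02) and -0.52 for miR-423-3p (-2.43 to 1.40). The edgeR adjusted p was between 0.94 and 0.96 for all 5.

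Plasma libraries were matched between the diets by the order of their titles, a pairing that the profiles do not show. With cows matched in this way, no member was higher on HG in every animal in plasma, as 7.99% of all names were. miR-103 was higher on HG in 3 of 4 cows, with log2 differences of 0.38, 0.30, 0.46 and -0.76 in cows 1 to 4. For each of the other 4 members, cow 1 went up and the other 3 cows went down. Of 15 other miRNAs used as references, let-7a-5p, miR-484, miR-320a, miR-151-5p, miR-425-5p and miR-30e-5p showed this pattern too, and the rest did not. The share of all names with this pattern was not worked out. In miR-423-5p these differences were 1.93, -1.11, -3.17 and -1.05, and in miR-423-3p they were 2.72, -1.13, -2.04 and -0.84. The upward animal, cow 1, was the one with the shallow FD library. The liver marker miR-122 also rose in cow 1 and fell in cows 2 to 4, and the part of depth or cell source was not tested. Without cow 1 the edgeR estimate for miR-423-5p went from -0.93 to -1.74, that for miR-423-3p from -0.52 to -1.33, that for miR-107 from -0.62 to -1.20 and that for miR-191 from -0.33 to -0.78, and none of these passed the test. Without cow 3 miR-423-5p came to -0.15, and miR-191 (0.10), miR-423-3p (0.11) and miR-103 (-0.02) changed sign. With library size alone miR-191 (0.08) and miR-423-3p (0.0079) also changed sign, so neither kept its direction in plasma. The median of all names moved from 0.25 to 0.67 under that scaling.

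In leucocytes all 5 members had a fitted value above 0, and none passed edgeR's test. edgeR called 15 of 782 names (1.92%) and DESeq2 25 (3.20%). The closest to the threshold was miR-423-5p, with a log2 fold change of 0.51 (SE 0.119, 95% interval 0.25 to 0.77, edgeR adjusted p = 0.0578). DESeq2 gave the same size, 0.51, and called it (adjusted p = 0.0126). The study, which also used DESeq2, reports miR-423-5p as up-regulated on HG in leucocytes. The adjusted p for this miRNA ran from 0.0020 without cow 4 to 0.99 without cow 3 across the alternatives, and its log2 fold change from 0.46 to 0.59. Without the block for cow its value was 0.51 with an adjusted p of 0.73. The other members had 0.27 for miR-103 (0.0026 to 0.54), 0.24 for miR-107 (-0.056 to 0.54), 0.33 for miR-191 (0.0054 to 0.65) and 0.28 for miR-423-3p (-0.092 to 0.65), with edgeR adjusted p of 0.33 to 0.50. The median over the 5 was 0.28 beside -0.01 over all names tested.

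miR-103, miR-107 and miR-423-5p were higher on HG in 3 of 3 leucocyte cows, as were 19.9% of all names. The differences for miR-423-5p were 0.44, 0.65 and 0.43 in cows 1, 3 and 4, and those for miR-103 were 0.16, 0.30 and 0.35. miR-191 and miR-423-3p rose in cows 1 and 3 and not in cow 4, where they stood at -0.08 and -0.25. Without cow 4 the edgeR calls in leucocytes went from 15 of 782 names to 102 of 750. Among these were then miR-191 (0.53, edgeR adjusted p = 5.0e-04), miR-423-5p (0.54, edgeR adjusted p = 0.0020) and miR-423-3p (0.54, edgeR adjusted p = 8.7e-04). Those values rest on a pair of cows.

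**Figure D2:**
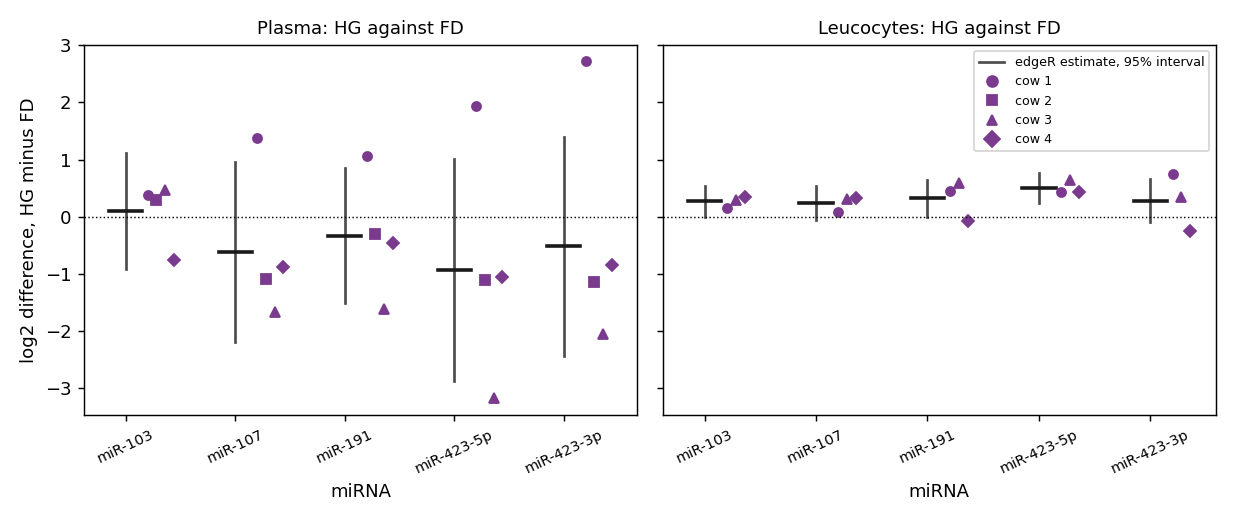
Log2 difference between HG and FD for each member in plasma (left) and leucocytes (right). Black bars and lines are the edgeR estimate with its 95% interval and purple symbols are single cows. In plasma, cow 1 lies above 0 and cows 2 to 4 below it for 4 of the 5 members, as for some miRNAs outside the 5 that are not drawn. In leucocytes the interval of miR-423-5p runs from 0.25 to 0.77.

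Whether the diet effect differed between plasma and leucocytes was tested as an interaction over the 14 libraries. It ran from -1.75 for miR-423-5p (95% interval -3.68 to 0.18, edgeR adjusted p = 0.69) to -0.37 for miR-103 (-1.21 to 0.48, edgeR adjusted p = 0.99). No member passed, of 800 names with 0 edgeR calls (0%), 59 (7.38%) at an unadjusted p under 0.05 and 28 DESeq2 calls (3.50%, no member among them). For miR-103 the sign turned under library size alone (0.22).

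Between sample types the 5 members parted in direction. Scaled over all 14 libraries, miR-103 was between 1219 and 2579 CPM in plasma and between 6314 and 10349 in leucocytes, so the sample types did not overlap. miR-423-5p was the reverse, at 1499 to 18912 CPM in plasma and 723 to 1335 in leucocytes, again without overlap. These are 2 of 5 members, beside 35.5% of 800 names whose sample types did not overlap.

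The fitted plasma-to-leucocyte difference was -2.28 log2 units for miR-103 (SE 0.215, edgeR adjusted p = 1.0e-05) and 2.87 for miR-423-5p (SE 0.494, edgeR adjusted p = 8.6e-04). miR-423-3p, at 1.28, also passed (SE 0.452, edgeR adjusted p = 0.0362), while miR-107, at -0.93 (SE 0.374, edgeR adjusted p = 0.0597), and miR-191, at -0.50 (SE 0.278, edgeR adjusted p = 0.158), did not. That is 3 of 5 members beside 371 of 800 names (46.4%), with 2 members higher in plasma (19.4% of names) and 1 lower (27.0%). DESeq2 called 1 member higher, miR-423-5p (19.9% of names), and 3 lower, miR-103, miR-107 and miR-191 (29.1% of names). The median difference over all names was -1.51, and 4 of the 5 members lay above it. miR-103 lay lower and miR-423-5p higher under each scaling tried, at -1.29 to -2.54 and 2.44 to 3.69. miR-191 turned from -0.50 to 0.38 with library size alone and passed with DESeq2's size factors at -0.86 (edgeR adjusted p = 0.0054). Calls over all names split into 155 higher and 216 lower with TMM, 144 and 259 with DESeq2's size factors, and 206 and 132 with library size alone, where the median was -1.76 and -0.63 for the last 2. Without the block for cow, the miR-107 difference was -0.11 in place of -0.93, and miR-191 passed at -0.64 (edgeR adjusted p = 0.0492).

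The spread of a reference between libraries was summarized by the SD of its log2 CPM, with its place among names of at least 100 CPM, counted from the smallest SD. In the 8 plasma libraries miR-103 had an SD of 0.35 (place 11 of 170) and miR-191 of 0.62 (place 57). miR-107 at 1.22 (place 131), miR-423-3p at 1.27 (place 137) and miR-423-5p at 1.35 (place 140) lay above the median SD of 0.80. Without cow 2 the SD of miR-107 was 0.66. With library size alone miR-103 came to 0.56 and miR-191 to 0.35, which put them in the opposite order, and miR-107 (1.04) came above miR-423-5p (1.01).

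Of 15 other miRNAs used as references, 4 had a smaller SD than miR-103 in plasma with TMM. These were miR-16b with an SD of 0.21, miR-93 with 0.23, miR-25 with 0.24 and miR-30e-5p with 0.29. miR-16b had the smallest SD of all 170 names. With library size alone, 8 of the 15 lay below miR-103, led by miR-30e-5p (0.24), miR-16a (0.24) and miR-425-5p (0.25). There miR-16b had 0.42 and miR-25 0.49, and miR-93, at 0.59, lay above miR-103. miR-16 is abundant in blood cells, erythrocytes included, and miR-93 and miR-25 come from 1 cluster.

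In the 6 leucocyte libraries all spreads were smaller, with a median SD of 0.29 over 128 names. miR-107 (0.22, place 35) and miR-103 (0.22, place 41) were below that median, miR-423-5p was close to it (0.29, place 66), and miR-191 (0.35, place 87) and miR-423-3p (0.44, above 82.8% of names) were above it. Outside the 5, miR-26a had 0.08 (place 2), miR-425-5p 0.11 (place 4) and miR-92a 0.12 (place 6). With library size alone these were 0.20, 0.20 and 0.23, miR-103 and miR-107 stood at 0.16 each, and miR-16b was the one of the 15 below miR-103 (0.12). With TMM, 88.3% of the leucocyte variance of miR-423-5p lay between the diets and 8.20% between cows. For miR-103, 51.7% lay between cows and 44.4% between diets. These shares were not worked out with library size alone, where the diet groups of miR-103 did not overlap and those of miR-423-5p did.

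Over all 14 libraries, scaled by TMM, miR-191 was the steadiest of the 5, with an SD of 0.60 (place 20 of 168, median 1.09), followed by miR-107 (0.95), miR-423-3p (1.05), miR-103 (1.18) and miR-423-5p (1.65). With TMM the order therefore depended on the libraries taken, and miR-103 went from the steadiest of the 5 in plasma to 4th of 5 when the sample types were joined. In plasma the order also depended on the scaling, as miR-191 was steadier than miR-103 with library size alone. By the median SD of the log2 ratio to all other names, which needs no scaling, miR-191 had 0.87 (place 22 of 170) and miR-103 0.88 (place 28) in plasma.

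**Figure D3:**
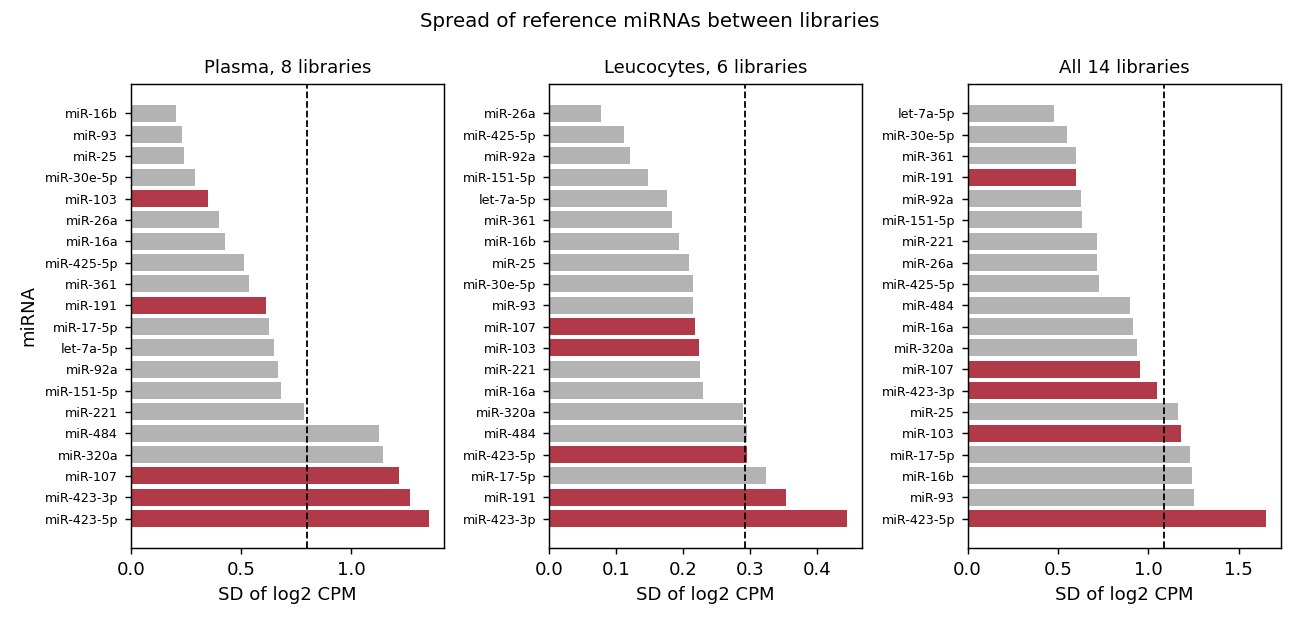
SD of log2 CPM between libraries for the 5 members (red) and 15 other reference miRNAs (grey), sorted within plasma, leucocytes and all 14 libraries, with TMM scaling and the median SD of all names of at least 100 CPM as a dashed line. miR-423-5p has the longest bar in plasma (1.35) and over all libraries (1.65), and miR-423-3p in leucocytes (0.44).

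Ratios between members need no scaling. In plasma the steadiest of the 10 pairs was that of the miR-423 arms, with an SD of the log2 ratio of 0.40, smaller than in all but 2.21% of 14365 pairs of names. miR-103 against miR-107 varied with an SD of 1.24 in plasma, above the median of 1.18 over all pairs. In leucocytes miR-103 against miR-107 was the steadiest pair, at 0.041, smaller than in all but 0.160% of 8128 pairs. By the reckoning below, 94.6% to 95.5% of leucocyte reads at miR-107 were also counted at miR-103. The ratio of this pair therefore does not compare independent counts, and its place does not measure agreement between separate references. The arms of miR-423 varied more in leucocytes (0.44) than the median pair (0.41), and that value was 0.23 without cow 4.

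Among other bovine names, miR-26a (SD of the log2 ratio 0.27), miR-93 (0.28) and miR-194 (0.34) were most like miR-103 over the plasma libraries. miR-191 ran with miR-30d (0.19), let-7g (0.20) and miR-151-3p (0.28) there. miR-107 had no close partner in plasma, where the most alike was miR-197 at 0.69. Apart from each other, miR-423-5p was nearest to miR-484 (0.51) and miR-423-3p to miR-320a (0.43). In leucocytes miR-93 was beside miR-103 (0.056) and miR-107 (0.073), miR-484 was beside miR-423-5p (0.077), miR-342 beside miR-191 (0.15) and miR-874 beside miR-423-3p (0.19). The fitted diet change of miR-484 in leucocytes was 0.50 with an edgeR adjusted p of 0.0578, as that of miR-423-5p.

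The levels of miR-103 and miR-107 are tied through reads that were counted at both names. The ratio of undivided to divided counts was 3.11 to 4.90 for miR-103 and 6.51 to 6.98 for miR-107, beside 2.0 for the other members. If a read found only at miR-107 was divided by 4 and one at both names by 7, the miR-107 counts gave a number of shared reads. It came out whole, within 0.056 reads, in 13 of 14 libraries. The miR-103 counts, with miR-103-only reads divided by 3, were not part of that check. They gave shared numbers up to 0.86% apart from the first. In leucocytes of cow 1 on FD these were 71356 beside 71815, where 3899 reads were reckoned as miR-107 alone. Of the other divisors tried for miR-107-only and shared reads, the best pair did so in 4 libraries. These divisors were worked out from the values and were not given in the methods.

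By that reckoning nearly all reads at miR-107 were also reads of miR-103, at 90.0% to 99.6% in plasma and 94.6% to 95.5% in leucocytes. From the side of miR-103, the shared part was 6.86% to 7.40% of its reads in the 6 leucocyte libraries. In plasma it was 6.48%, 67.9%, 34.9% and 26.5% in cows 1 to 4 on FD and 14.4%, 34.0%, 8.62% and 24.6% on HG. The shared part was thus even in leucocytes and uneven in plasma, where cow 2 was highest on each diet, as it was for the miR-107 level.

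Reads found only at miR-107 numbered 23 to 33 in the plasma libraries on FD and 44 to 64 on HG, and 1112 to 3899 in leucocytes. Per 1000000 assigned reads that is 61.1, 23.1, 14.2 and 9.06 in cows 1 to 4 on FD and 14.3, 45.1, 52.7 and 13.2 on HG. The exact 95% Poisson interval, for counting error only, was 38.7 to 91.6 for cow 1 on FD and 6.02 to 13.1 for cow 4 on FD, so these libraries differed beyond counting error. In leucocytes the value was 59.0, 61.5 and 51.1 on FD and 63.4, 79.3 and 70.7 on HG in cows 1, 3 and 4, with each cow higher on HG (mean log2 difference 0.31, SD 0.19, exact two-sided sign-flip permutation p = 0.25, the smallest that 3 cows allow). In plasma cow 1 went down and the other 3 cows up, which is the reverse of the level of the divided counts.

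**Figure D4:**
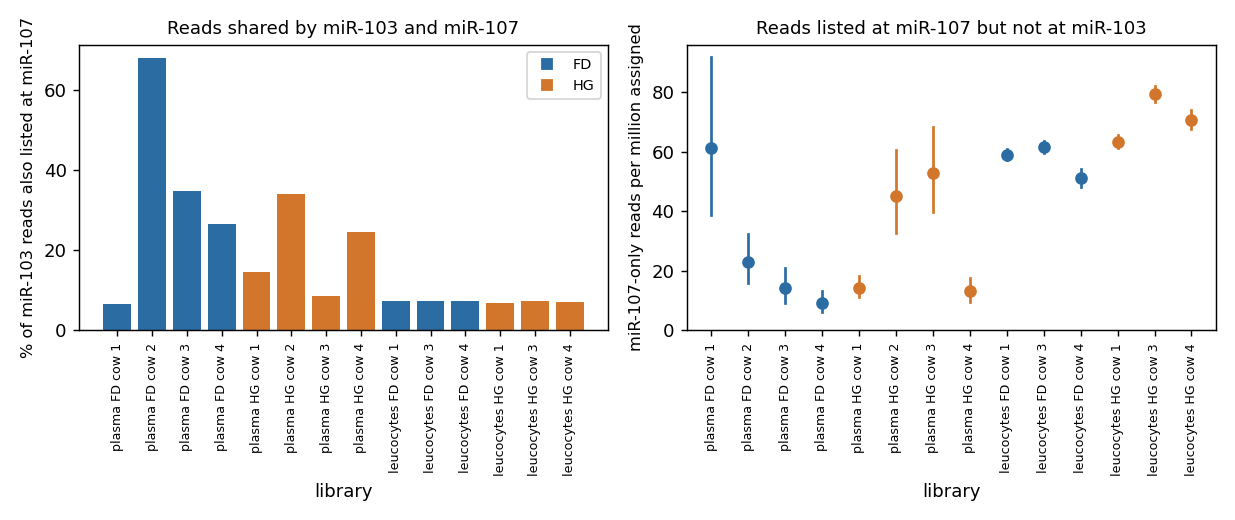
Left, the percent of miR-103 reads that were also listed at miR-107 in each library. Right, reads listed at miR-107 alone per 1000000 assigned, with exact 95% Poisson intervals for counting error. The shared part lies between 6.86% and 7.40% in all leucocyte libraries and reaches 67.9% in plasma from cow 2 on FD.

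The arms of miR-423 come from 1 hairpin, and their balance differed by sample type. The log2 ratio of miR-423-5p to miR-423-3p was 0.40, 0.32, 0.61 and 0.19 in plasma of cows 1 to 4 on FD and -0.38, 0.34, -0.52 and -0.02 on HG. In leucocytes it was -1.28, -1.32 and -2.30 in cows 1, 3 and 4 on FD and -1.59, -1.02 and -1.62 on HG. The 3p arm exceeded the 5p arm in each leucocyte library, and the arms were nearly equal in plasma, without overlap between the sample types.

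Averaged by cow, the ratio was 0.12 ± 0.14 (SD, n = 4) in plasma and -1.52 ± 0.40 (SD, n = 3) in leucocytes, a difference of 1.64 (SE 0.244). An exact two-sided permutation test of the cow means gave p = 0.057, the smallest that 4 against 3 allow, and 0.17 after Benjamini-Hochberg adjustment over the 3 arm tests. The cows of the leucocyte libraries also gave plasma, and the test does not use that pairing. Between diets the ratio was lower on HG by 0.53 ± 0.53 (SD) in plasma, with 3 of 4 cows lower (exact two-sided sign-flip permutation p = 0.25, adjusted 0.38). In leucocytes it was 0.23 ± 0.50 higher on HG, with 2 of 3 cows higher (exact two-sided sign-flip permutation p = 0.75, adjusted 0.75), and -0.0012 without cow 4.

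**Figure D5:**
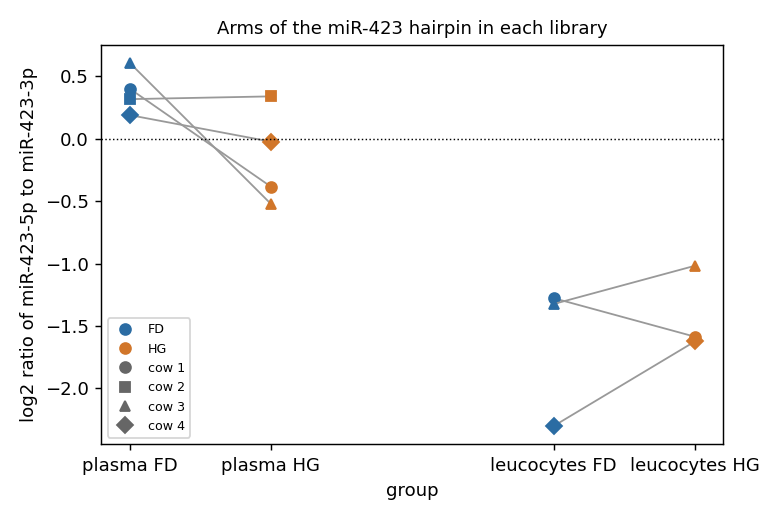
Log2 ratio of miR-423-5p to miR-423-3p in each library, with FD in blue, HG in orange and lines joining the libraries of a cow. Plasma libraries lie between -0.52 and 0.61 and leucocyte libraries between -2.30 and -1.02.

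A reference index is the mean log2 CPM of its members, and a shift of the index between diets moves each value divided by it by the same amount in the opposite direction. The index of miR-103 and miR-107 covered a 3.54-fold range over the plasma libraries and a 1.56-fold range over the leucocyte libraries. By the reckoning above, 90.0% to 99.6% of plasma reads at miR-107 and 94.6% to 95.5% in leucocytes were also counted at miR-103. This index is therefore not a mean of independent counts. On HG it was lower by 0.23 ± 0.76 log2 units in plasma (SD, 3 of 4 cows lower, exact two-sided sign-flip permutation p = 0.63) and higher by 0.26 ± 0.12 in leucocytes (3 of 3 cows, exact two-sided sign-flip permutation p = 0.25). With library size alone the plasma value was 0.17, in the other direction. The index of all 5 members ranged 4.55-fold in plasma and 1.36-fold in leucocytes. Its shift was -0.39 ± 1.33 in plasma (exact two-sided sign-flip permutation p = 0.63) and 0.33 ± 0.15 in leucocytes (3 of 3 cows, exact two-sided sign-flip permutation p = 0.25). In plasma that shift was -1.01 without cow 1 and 0.015 without cow 3. With 4 cows the smallest p of this test is 0.13, so it cannot pass 0.05 in either sample type.

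A pair of further indices was chosen after the data were seen. miR-191 with miR-103 ranged 1.69-fold over the plasma libraries and 1.42-fold over the leucocyte libraries, with shifts of -0.12 ± 0.62 and 0.30 ± 0.15. miR-103 with bta-miR-17-5p ranged 1.97-fold in plasma and 1.65-fold in leucocytes, with shifts of 0.08 ± 0.22 and 0.22 ± 0.14. The study normalized its RT-qPCR to miR-103 and miR-107 and states that their stable expression was checked. The indices here come from sequencing reads and do not measure its RT-qPCR values. The primers it lists for these miRNAs begin with different letters, although the miRNAs share a seed. The letters of that for miR-107 look like those of miR-17-5p, which could not be checked against a miRNA sequence file here. bta-miR-17-5p, a member of the miR-17-92 cluster, which is active in proliferating cells, was therefore read beside the members. It stood at 307, 532, 385 and 132 CPM in plasma of cows 1 to 4 on FD and at 387, 359, 356 and 206 CPM on HG, so the groups overlapped. In leucocytes it was 862, 700 and 483 CPM in cows 1, 3 and 4 on FD and 873, 768 and 623 CPM on HG. Its fitted diet change was 0.07 in plasma (95% interval -1.20 to 1.35) and 0.17 in leucocytes (-0.093 to 0.44), where each cow was higher on HG and cow 4 was lowest on both diets. By SD of log2 CPM it was at place 59 of 170 in plasma (0.63) and at place 73 of 128 in leucocytes (0.32).

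Over the 15 other reference miRNAs as a list, none passed edgeR's test between the diets in plasma (median log2 fold change -0.26, 4 above 0, beside 0.25 over all names) or in leucocytes (0.17, 11 above 0, beside -0.01). DESeq2 called 1 of them in leucocytes, miR-484 (0.50, adjusted p = 0.0167). Between plasma and leucocytes 10 of 15 passed edgeR's test and all 10 were lower in plasma, with a list median of -0.92 beside -1.51 over all names and -0.50 over the 5 members.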

How the data were processed

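Small RNA libraries of plasma (8) and leucocytes (6) were used. The authors trimmed the reads and assigned those of at least 15 nt with sRNAbench to miRBase names on UMD3.1, allowing 2 mismatches, and bcl2fastq 2.20 is in the submitters' processing notes. The deposited library files hold read counts, counted in full at each name a read matches, counts of distinct sequences, and estimated counts. The authors made each estimated count by dividing reads to adjust for multiple matches. The divisor was not the number of names listed here. Reads of both miR-423 arms were divided by 2.0, although these arms are listed under the bovine names only. Estimated counts summed to between 71.2% and 87.1% of the assigned reads of a library. The deposited normalized tables were not used.

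Estimated counts were rounded and fitted with edgeR 4.0.16 (R 4.3.3; quasi-likelihood, robust, TMM, at least 10 reads in total, cow plus diet or group) over all names, with Benjamini-Hochberg adjustment. Some of these names have identical counts, such as the human names hsa-miR-103a-3p and hsa-miR-191-5p, which equal miR-103 and miR-191 in every library. Shares and adjusted p-values over all names count both. With identical names taken once, 431 names were tested in plasma and 674 in leucocytes. DESeq2 1.42.0 and limma 3.58.1 gave alternatives. SDs used log2 CPM with 0.5 reads added. The scripts were tested on simulated data. Exact tests used scipy 1.17.1.

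Members and lists were chosen with earlier results of these data known. Members were named by rule, with 15 other references and, for each member, the 3 names of smallest ratio SD. Cows were matched between diets by the order of the titles in plasma and by letters in the titles in leucocytes. The fits of all 14 libraries also took plasma and leucocyte libraries of the same number as the same cow, which was not tested. Correlations of deviations from the group means over names were -0.418 to 0.511 within cows in plasma, so the profiles do not show that pairing, and 0.46 to 0.811 in leucocytes. The p-values measure the spread between these animals only. No miRNA sequence file was used here.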

Additional observations from a re-analysis of the deposited data

Results flagged for a closer look

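Among 18 groups of 4 plasma libraries tested for a sample far from the others, 1 stood out, which is about what chance gives (1 in 20). This was bta-miR-17-5p on HG, where cow 4 had 206 CPM and the other cows had 356 to 387 CPM. Its part in the index with miR-103 was not tested.

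Reads were also listed at names beside the members that no comparison used. bta-miR-191b, on the strand opposite miR-191, had up to 364 reads in a leucocyte library, and hsa-miR-103a-2-5p, the other arm of a miR-103 hairpin, had up to 346, both above the 3 reads that a count of 0 allows and both in 8 of 14 libraries.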

How the results depend on the processing

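Of the counts of calls, arm ratios and indices, 62 kept their direction and side of the threshold, 10 counts moved by over 1.5 times and 4 values reversed. Plasma diet calls were 0 in each setting except DESeq2's test, with 12. Leucocyte diet calls, 15 in the report, were 9 with DESeq2's size factors, 24 with at least 10 reads in every library, 5 with identical names taken once, 25 with DESeq2's test, and 0 to 102 with each cow left out (8 without cow 1, 0 without cow 3, 102 without cow 4). Without the replicate block for cow they were 0, and the block changed no other count by over 1.5 times. Calls between sample types fell from 371 to 196 with at least 10 reads in every library, where 257 names were tested.

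Signs that turned under library size alone were those of the plasma diet change of miR-191 (0.080) and miR-423-3p (0.0079), of miR-191 between sample types (0.38), of the interaction of miR-103 (0.22), and of the plasma indices of miR-103 with miR-107 (0.17), of all 5 members (0.010) and of miR-191 with miR-103 (0.29). With each cow left out, the plasma change ran from -0.018 to 0.38 for miR-103, from -0.78 to 0.10 for miR-191 and from -1.33 to 0.11 for miR-423-3p, the index of all 5 from -1.01 to 0.015, that of miR-191 with miR-103 from -0.39 to 0.052, and the leucocyte arm ratio from -0.0012 to 0.49. The cause was not tested.

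Between sample types, miR-107 passed in 6 of the alternatives, miR-191 in 5 and miR-423-3p failed in 5, with miR-423-3p at 0.86 (adjusted p = 0.0565) for DESeq2's size factors. The miR-423 arm ratio has no alternative with human homologues summed, since both arms are listed here under the bovine names. Depth limits the plasma reads of miR-107 alone, at 23 to 64 per library. The exact test over 4 cows cannot go under 0.13.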
